A study of Homo sapiens with 16 samples.

Results

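Ribosome biogenesis starts in the nucleolus and draws on a large set of proteins, and 44 of the genes behind it were followed here through itraconazole treatment of a pair of colorectal cancer cell lines. The 44 were a list of nucleolar rRNA synthesis and processing genes, matched by symbol to the 54127 Ensembl identifiers of the count files. All 44 were found, and all 44 reached 10 or more counts in the 4 libraries of at least 1 group, as 13075 of the listed genes did. They were described in 6 role groups. These were RNA polymerase I with its initiation factors (6 genes), the box C/D snoRNP core (3), the box H/ACA snoRNP core (4), nucleolar scaffold and chaperone proteins (4), small subunit (40S) processing factors (15) and large subunit (60S) assembly factors (12).

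HT55 and SW948 are established human colorectal cancer lines. They were grown as adherent cultures with foetal bovine serum and antibiotics, and received either itraconazole, an azole antifungal, at 5 µM or its solvent DMSO for 6 days. RNA sequencing was done on 16 libraries, 4 for every pairing of a line with a treatment, with the DMSO libraries as controls. The 4 replicates of a group were biological replicates by the study's methods, and how they were separated is not given in the labels. The series was made to ask how itraconazole acts on colorectal cancer cells, and each line stands for 1 tumor only.

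RNA polymerase I transcribes the rRNA precursor, with UBTF and RRN3 acting at its promoter. Box C/D and box H/ACA snoRNPs then guide its 2′-O-methylation and pseudouridylation, and further factors fold, cut and assemble it into the small and large ribosomal subunits. Ribosome production is coupled to growth, and many of its genes are known targets of MYC, a Wnt-responsive transcription factor in the colon.

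Gene counts per library ran from 8269406 to 11110814. Between 21.99% and 27.9% of reads had more than 1 alignment and were counted in no gene. All 10 epithelial markers reached 10 counts in every library, at summed levels of 6158 to 11240 CPM (counts per 1000000 gene counts). Of the leukocyte markers, PTPRC and CD3E had at most 1 count in any group of 4 libraries, whereas CD68, which also encodes a lysosomal protein, reached a mean of 110.3 CPM in treated SW948. The 5 mesenchymal markers summed to at most 11.6 CPM and both endothelial markers found to at most 0.712 CPM. The treated HT55 libraries differed among themselves by chi-square values per degree of freedom of 4.88 to 40.5 over genes, against 1.43 to 2.34 among the HT55 controls. Replicate 3 had values of 26.01 and 40.5 with replicates 1 and 2 and 12.3 with replicate 4, and replicate 4 had 10.6 and 15.7 with replicates 1 and 2. Treated SW948 libraries differed by 3.76 to 21.5, and SW948 controls by 2.45 to 4.85. Replicate 1 of treated SW948 had values of 14.8 and 21.5 with replicates 2 and 3.

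Levels are given as CPM scaled by TMM, a factor that sets the bulk of genes equal between libraries. Every comparison was also made on plain library totals, since TMM and plain totals differed here. Going from TMM to plain totals moved the median log2 fold change of all genes by -0.16 in HT55 and by -0.33 in SW948. A gene was called changed at a Benjamini-Hochberg adjusted p under 0.05 in the quasi-likelihood test of edgeR over all genes.

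Summed over the 44 genes, the share of all gene counts was lower with itraconazole in both lines. DMSO libraries of HT55 spent 0.515% to 0.521% of their counts on these genes, and treated libraries 0.380% to 0.435%. In SW948 the DMSO libraries ranged from 0.567% to 0.581% and the treated libraries from 0.380% to 0.434%. The groups did not overlap in either line. Without NCL and NPM1, which hold many of these counts, the share went from 0.361% ± 0.000638 to 0.280% ± 0.0135 in HT55 and from 0.386% ± 0.00244 to 0.246% ± 0.0206 in SW948 (SD, n = 4). These shares are on plain totals, where the median log2 fold change over all genes tested was -0.18 in HT55 and -0.35 in SW948. In bulk RNA, fewer cells that express a gene and less RNA per cell cannot be told apart.

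**Figure D1:**
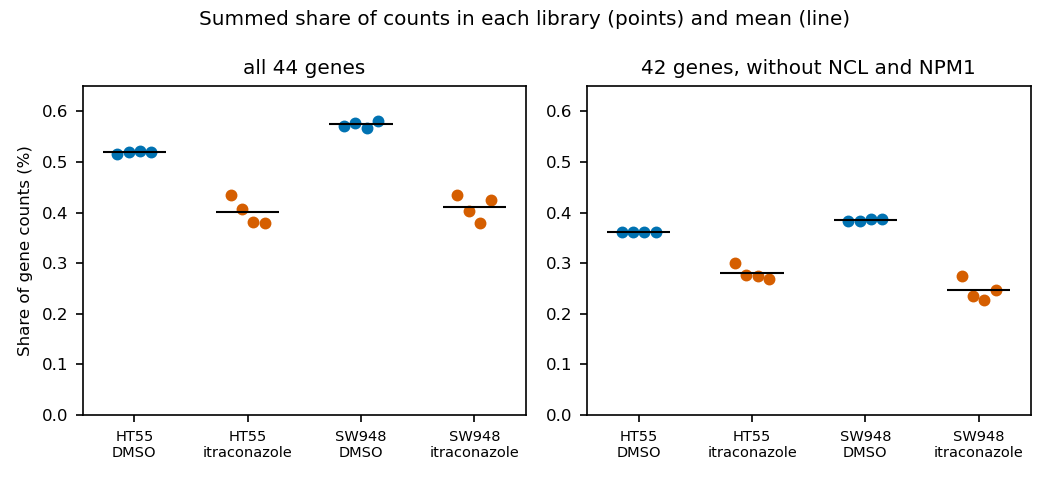
Share of all gene counts held by the 44 genes (left) and by 42 of them, without NCL and NPM1 (right), in percent on plain library totals, for 4 libraries in each of 4 groups; the line is the mean. In both panels all 4 treated libraries (orange) of a line lie below all 4 DMSO libraries (blue).

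In HT55, 15 of the 44 genes fell, 1 rose and 28 were not called, where 26.5% of 12133 genes tested fell and 27.5% rose. In SW948, 28 fell, 8 rose and 8 were not called, where 41.3% of 12505 genes fell and 38.9% rose. The median log2 fold change of the 44 was -0.18 in HT55 and -0.37 in SW948, against -0.02 in both lines over all genes tested. On plain totals 32 fell and none rose in HT55 (38.8% and 18.8% of all genes), and 36 fell and 3 rose in SW948 (54.6% and 25.1%), with medians of -0.34 and -0.70 against -0.18 and -0.35 over all genes. The 15 falls in HT55 and 28 falls in SW948 were called under both scalings, as were all 3213 and 5165 genes that fell with TMM in these lines. Of the rises, NOP10 in HT55 was not called on plain totals, and only NPM1, DDX21 and NOP10 were in SW948. All 4 treated libraries lay below all 4 DMSO libraries for 14 genes in HT55 (24.4% of all genes) and for 26 in SW948 (37.4%), and above them for 1 (25.0%) and 8 (37.3%).

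The 14 genes that fell in both lines were UBTF, NOP56, NOP58, DKC1, NCL, NOLC1, UTP4, WDR43, NOP14, RRP1, RRS1, PES1, EBNA1BP2 and MRTO4. Of the 11448 genes tested in both lines, 19.5% fell in both. NOP10 was the 1 gene that rose in both with TMM, where 19.9% of genes did. FBL fell in HT55 and rose in SW948 with TMM, as 6.66% of genes went opposite ways, but its rise in SW948 was lost and its sign turned on plain totals (log2 fold change -0.04). A call together with a log2 fold change of -1 or lower was seen for 1 of the 44 in HT55, NOP56, against 4.33% of all genes. In SW948 it was seen for 12, against 18.7%. The 12 were POLR1A, POLR1C, UBTF, NOP56, NOP58, UTP20, HEATR1, RRP1, PES1, EBNA1BP2, MRTO4 and LAS1L.

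**Figure D2:**
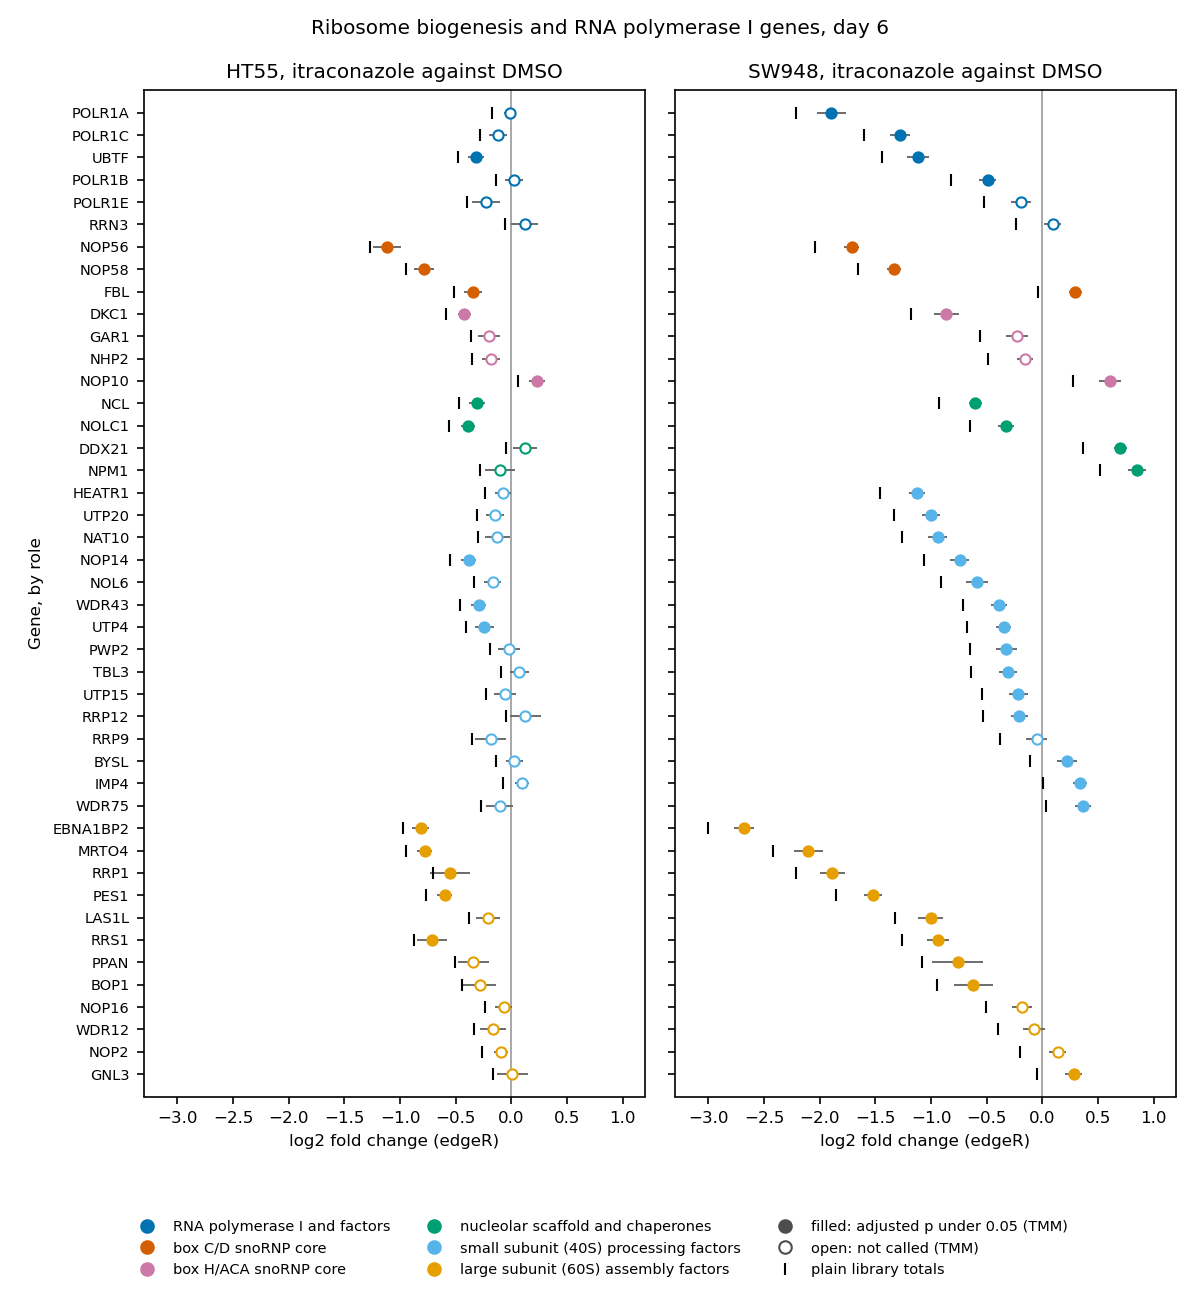
Log2 fold change of itraconazole against DMSO for each of the 44 genes in HT55 (left) and SW948 (right), ordered by role group (color) and by the SW948 value. Circles are TMM estimates with SE over 8 libraries, filled where the adjusted p is under 0.05; ticks are the estimates on plain library totals, which lie lower throughout. The SW948 values run from -2.68 (EBNA1BP2) to 0.85 (NPM1) and the HT55 values from -1.11 (NOP56) to 0.23 (NOP10).

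The lowest and the highest fold change belonged to EBNA1BP2 and NPM1, both in SW948. The 250 bases before the start of each are shown from RefSeq (GRCh38.p14, a later build than that of the counts), since they are the extremes of the range. Capitals mark matches, on either strand, to the E-box CACGTG (bound by MYC and related factors), the GC box GGGCGG or the ETS-type letters CCGGAAG. EBNA1BP2 (chr1:43172291-43172540, minus strand) held the ETS-type letters at a pair of sites and has an E-box after its start, at position 43 counted from 1 at the start, outside the bases shown. NPM1 (chr5:171387599-171387848, plus strand) held none of the 3 motifs.
EBNA1BP2: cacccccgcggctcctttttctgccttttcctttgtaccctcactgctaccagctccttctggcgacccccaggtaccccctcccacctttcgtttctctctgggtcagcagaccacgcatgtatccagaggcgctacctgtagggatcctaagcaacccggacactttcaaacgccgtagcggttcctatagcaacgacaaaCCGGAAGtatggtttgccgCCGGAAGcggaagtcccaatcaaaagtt
NPM1: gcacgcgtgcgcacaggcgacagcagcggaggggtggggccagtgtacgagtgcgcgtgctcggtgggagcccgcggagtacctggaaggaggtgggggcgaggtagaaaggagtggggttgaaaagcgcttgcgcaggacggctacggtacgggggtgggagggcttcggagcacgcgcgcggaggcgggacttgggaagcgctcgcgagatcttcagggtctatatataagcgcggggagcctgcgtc

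RefSeq windows of 300 bases, 250 before and 50 after a start, were found for 38 of the 44 genes, and not for POLR1E, NOP58, NOLC1, RRP12, RRS1 and BOP1. The E-box was present in a window of 19 of the 38. It was present in 7.26% of all 35116 windows and for 12.7% of the 9677 genes that had a window and were tested in SW948. The GC box was present for 29 of the 38 genes (78.1% of those 9677) and the ETS-type letters for 14 (23.1%). With 1 window per gene, 17 of 20 E-box sites began within 40 bases of the start, against 27.7% of the sites in all windows. That distance was chosen after the positions had been seen.

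The 30 bases around an E-box are shown for genes that moved in different directions, with the motif in capitals.
MRTO4 (chr1:19251807-19251836, plus strand): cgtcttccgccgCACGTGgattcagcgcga
PES1 (chr22:30591880-30591909, minus strand): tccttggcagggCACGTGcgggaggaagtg
UTP20 (chr12:101280083-101280112, plus strand): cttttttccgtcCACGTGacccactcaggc
NAT10 (chr11:34105602-34105631, plus strand): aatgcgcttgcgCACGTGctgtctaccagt
NOP14 (chr4:2963374-2963403, minus strand): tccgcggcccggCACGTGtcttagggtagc
FBL (chr19:39846356-39846385, minus strand): tgcgctcttttcCACGTGcgaaagccccgg
NOP10 (chr15:34343130-34343159, minus strand): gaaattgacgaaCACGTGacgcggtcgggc
IMP4 (chr2:130342900-130342929, plus strand): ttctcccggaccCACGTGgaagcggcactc
GNL3 (chr3:52686026-52686055, plus strand): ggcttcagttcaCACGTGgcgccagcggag
The first base of the motif lay at position 15 in MRTO4, 14 in PES1, 16 in NOP14, 7 in FBL, 16 in IMP4 and 7 in GNL3, counted from 1 at the start. It lay 10 bases before the start in UTP20, 15 in NAT10 and 11 in NOP10. NOP10 and IMP4 each held a further E-box, not shown, at 170 and 203 bases before the start. MRTO4, PES1, UTP20, NAT10 and NOP14 fell in SW948, and FBL, NOP10, IMP4 and GNL3 rose there with TMM, FBL and GNL3 turning below 0 on plain totals. Of the 19 genes with an E-box, 10 fell in SW948, 6 rose and 3 were not called, with a median log2 fold change of -0.32. Of the 19 without, 13 fell, 2 rose and 4 were not called, with a median of -0.60. These values are with TMM, where 41.3% of all genes tested fell in SW948 and 38.9% rose. All genes were not split by the motif, so whether the direction goes with it was not tested. A match of letters is a description and not a bound site.

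Among RNA polymerase I and its initiation factors, 4 of 6 members fell in SW948 and 1 in HT55 with TMM. In HT55 only UBTF fell and the other 5 were not called, while in SW948 POLR1A, POLR1B, POLR1C and UBTF fell and POLR1E and RRN3 were not called. On plain totals 4 of the 6 fell in HT55, among them POLR1A and POLR1C, and all 6 fell in SW948. The shares of all genes that fell were 26.5% (HT55) and 41.3% (SW948) with TMM, and 38.8% and 54.6% on plain totals. POLR1A (chr2:86247339-86333278, minus strand, GRCh37, protein coding) encodes the largest subunit of the enzyme. Its levels were 95.6, 97.2, 94.1 and 91.4 CPM in HT55 DMSO and 97.8, 92.7, 92.6 and 94.0 CPM in HT55 itraconazole. In SW948 they were 96.8, 106.5, 109 and 109 CPM with DMSO and 40.02, 26.3, 24.7 and 23.9 CPM with itraconazole. The HT55 groups overlapped, and every treated SW948 library was far below every control. The log2 fold change was -0.01 ± 0.05 in HT55 (SE, edgeR adjusted p = 0.894) and -1.90 ± 0.13 in SW948 (SE, edgeR adjusted p = 1.1e-08).

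POLR1C encodes a subunit shared with RNA polymerase III, and was the member of this group with the most RNA per length, at a mean of 23.8 CPM per kilobase of transcript (RPKM) over the 16 libraries. It stood at 29.5, 26.01, 31.4 and 29.6 CPM in HT55 DMSO and at 26.2, 26.6, 27.1 and 27.6 CPM with itraconazole. In SW948 it stood at 46.7, 44.8, 46.4 and 46.5 CPM with DMSO and at 22.4, 16.9, 18.3 and 19.98 CPM with itraconazole. The groups overlapped in HT55 and were apart in SW948, where the log2 fold change was -1.28 ± 0.09 (SE, edgeR adjusted p = 1.23e-08). In HT55 it was -0.12 ± 0.08 (SE, edgeR adjusted p = 0.239). UBTF, which binds and bends the rRNA gene promoter, fell on the log2 scale by 0.32 (HT55) and 1.12 (SW948). POLR1B, the second largest subunit, was at 0.03 in HT55, and its SW948 value dropped by 0.49. POLR1E was at -0.23 and -0.19, and RRN3, which recruits the polymerase, at 0.12 and 0.09.

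The box C/D core proteins NOP56 and NOP58 fell in both lines, and FBL differed in direction between them with TMM. NOP56 (chr20:2633239-2639039, plus strand, GRCh37, protein coding) was measured at 102, 105, 110 and 106 CPM in HT55 DMSO and at 48.9, 42.1, 64.0 and 40.5 CPM with itraconazole. In SW948 it went from 170.1, 161, 169 and 167 CPM to 55.6, 47.2, 54.5 and 50.8 CPM. Treated libraries were clear of the controls in both lines, and the log2 fold changes were -1.11 ± 0.13 in HT55 (SE, edgeR adjusted p = 6.88e-05) and -1.71 ± 0.07 in SW948 (SE, edgeR adjusted p = 8.11e-11).

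NOP58, its partner, was at 97.4, 102, 106 and 96.8 CPM in HT55 DMSO and 57.8, 49.4, 67.5 and 58.8 CPM with itraconazole. Its SW948 levels were 143, 144, 137 and 146 CPM with DMSO and 62.2, 59.2, 54.8 and 55.4 CPM with itraconazole. The SW948 controls were above the HT55 controls, while the treated means were 58.4 CPM in HT55 and 57.9 CPM in SW948. The log2 fold changes were -0.79 ± 0.09 (SE, edgeR adjusted p = 6.91e-05) and -1.33 ± 0.06 (SE, edgeR adjusted p = 3.94e-10). NOP56 and NOP58 both carry snoRNAs in their introns, as do DKC1, NCL, WDR43, GNL3 and PPAN.

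FBL, fibrillarin, is the methyltransferase of the same particle and had the highest level per length of the 3, at a mean of 188 RPKM. It was at 238, 245, 244 and 248.6 CPM in HT55 DMSO and 211, 209, 181 and 169 CPM with itraconazole. In SW948 it was at 186, 174, 183.5 and 186 CPM with DMSO and 223, 216, 235 and 241 CPM with itraconazole. All treated libraries were below the controls in HT55 and above them in SW948. The log2 fold changes were -0.34 ± 0.08 (SE, edgeR adjusted p = 0.00384) and 0.30 ± 0.06 (SE, edgeR adjusted p = 0.000416), the latter being -0.04 on plain totals, where it was not called. The difference between the lines was 0.67 ± 0.10 with TMM (SE, edgeR adjusted p = 1.45e-05) and was called under both scalings.

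Among the box H/ACA proteins, DKC1 fell in both lines, NOP10 rose in both with TMM, and GAR1 and NHP2 were not called. On plain totals GAR1 and NHP2 fell in both lines as well. DKC1, dyskerin, is the pseudouridine synthase of the particle, and its mean level went from 228 ± 1.995 to 170.3 ± 9.15 CPM (HT55) and, in the other line, from 85.1 ± 4.59 to 47.7 ± 9.68 CPM (SD, n = 4). NOP10, a small protein that holds the particle together, was at 62.7, 64.5, 65.9 and 64.3 CPM in HT55 DMSO and 79.5, 82.9, 69.7 and 70.6 CPM with itraconazole. In SW948 it was at 32.3, 27.7, 30.3 and 33.0 CPM with DMSO and 43.7, 48.5, 58.1 and 42.6 CPM with itraconazole. The groups were apart in both lines, with the treated libraries higher. Log2 fold changes were 0.23 ± 0.07 in HT55 (SE, edgeR adjusted p = 0.0203) and 0.61 ± 0.10 in SW948 (SE, edgeR adjusted p = 8.75e-05). On plain totals they were 0.06, not called, and 0.27, called. The HT55 call was also lost without replicate 1 of either group, with adjusted p values of 0.0522 and 0.0535. GAR1 was at -0.20 and -0.23, and NHP2 at -0.18 and -0.16.

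The nucleolar scaffold and chaperone proteins split into a pair that fell and a pair that rose in SW948. Of all genes, 41.3% fell and 38.9% rose there with TMM, so the split was near the background. The same pairs were called on plain totals, where 54.6% fell and 25.1% rose. NCL, nucleolin, fell by 0.31 (HT55) and 0.60 (SW948) on the log2 scale. NOLC1, a snoRNP chaperone, fell by 0.39 and by 0.33. NPM1 (chr5:170814120-170838814, plus strand, GRCh37, protein coding), nucleophosmin, had the highest level per length of all 44, at a mean of 573 RPKM. It stood at 634, 665, 679 and 677 CPM in HT55 DMSO and at 724, 755, 463 and 539 CPM with itraconazole. In SW948 it stood at 641, 626, 546.5 and 640.2 CPM with DMSO and at 987.5, 1207, 1121 and 1205 CPM with itraconazole. In HT55 a pair of treated libraries was above all controls and the other pair below them, while in SW948 every treated library was far above every control. Log2 fold changes were -0.10 ± 0.14 in HT55 (SE, edgeR adjusted p = 0.546) and 0.85 ± 0.08 in SW948 (SE, edgeR adjusted p = 3.58e-07).

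DDX21, an RNA helicase of the nucleolus, was at 338, 337, 323 and 343 CPM in HT55 DMSO and 419, 399, 284 and 364 CPM with itraconazole. The SW948 libraries gave 295, 305, 295 and 302 CPM with DMSO and 470.2, 509, 510.1 and 498 CPM with itraconazole. Replicate 3 was the lowest treated HT55 library, as for NPM1, and the groups were apart in SW948 only. The log2 fold change in SW948 was 0.70 ± 0.06 (SE, edgeR adjusted p = 7.64e-08). In HT55 it was 0.12 ± 0.10 (SE, edgeR adjusted p = 0.339), and 0.24 with an adjusted p of 0.00354 in edgeR without replicate 3 of the treated libraries.

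**Figure D3:**
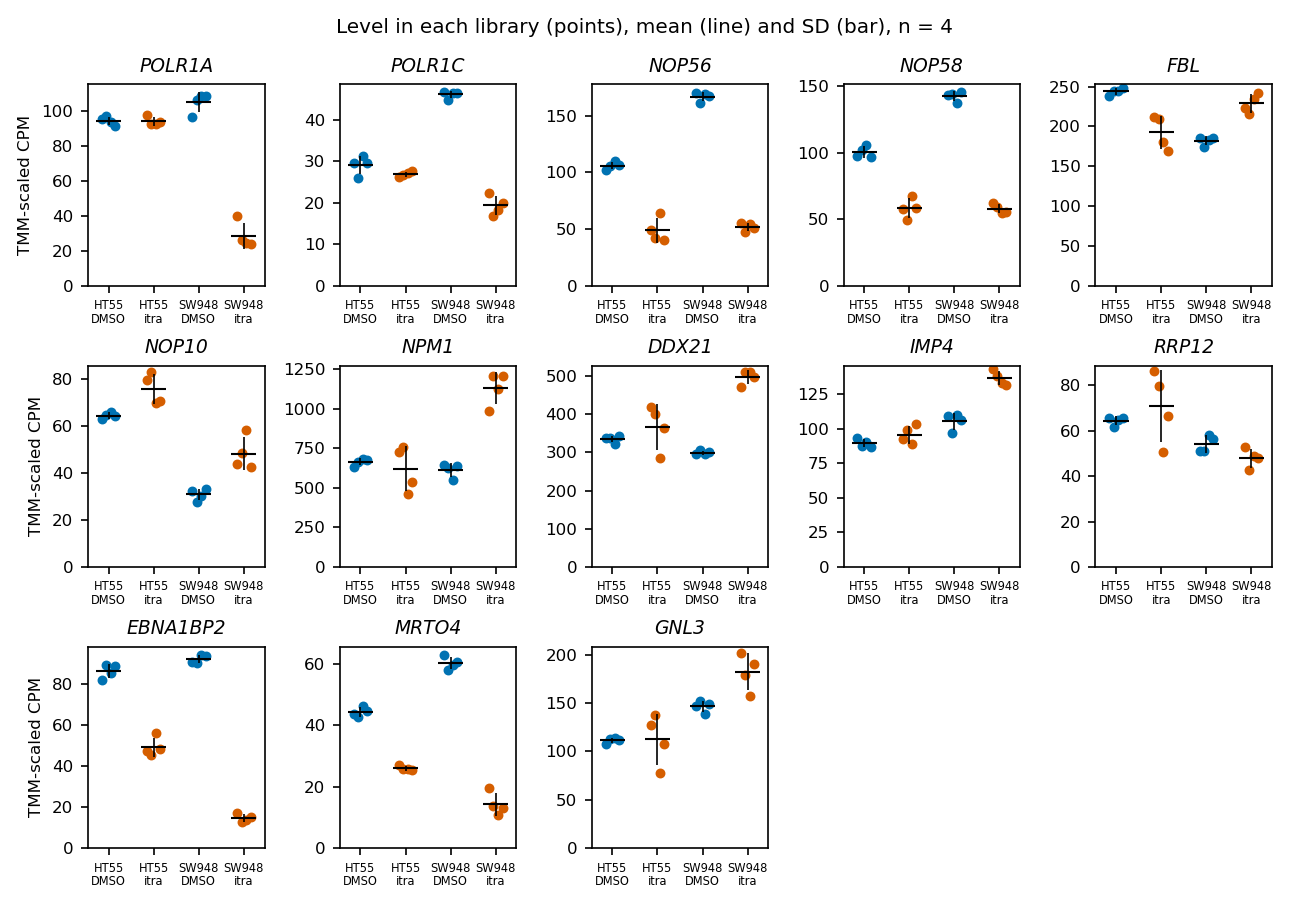
TMM-scaled CPM of 13 genes in each library (points), with the mean (line) and SD (bar) of 4 libraries, for DMSO (blue) and itraconazole (orange) in each line; each panel has its own axis from 0. With this scaling POLR1A is level in HT55 and falls in SW948, and FBL falls in HT55 and rises in SW948 (its SW948 value is -0.04 on plain totals); NPM1, DDX21, RRP12 and GNL3 spread widely among the treated HT55 libraries.

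Of the 15 small subunit factors, UTP4, WDR43 and NOP14 fell in HT55 with TMM and the other 12 were not called, while on plain totals 9 fell. Of all genes, 26.5% fell in HT55 with TMM and 38.8% on plain totals. The UTP4 call was the least secure, since 7 of the 8 fits that left out 1 library lost it. The fit that kept it left out replicate 3 of treated HT55. UTP4 was at 90.5 CPM in that library and at 70.3 to 72.1 CPM in the other treated HT55 libraries. In SW948 11 of 15 fell, 3 rose and RRP9 was not called, while on plain totals 12 fell, RRP9 included, and none rose. Among all genes, 41.3% fell and 38.9% rose in SW948 with TMM, and 54.6% and 25.1% on plain totals. Falls of the 15 with TMM in SW948 were largest for HEATR1, a component of the processome (1.13 on the log2 scale), and UTP20 (1). They were followed by NAT10, an RNA acetyltransferase (0.94), NOP14 (0.74) and NOL6 (0.59). WDR43, UTP4, PWP2, TBL3, UTP15 and RRP12 fell by 0.21 to 0.39. The log2 fold changes of HEATR1, UTP20 and NAT10 in HT55 were -0.07, -0.14 and -0.13.

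IMP4, which helps pair the U3 snoRNA with the precursor, had the highest level per length of the 15, at 44.3 RPKM. It was at 93.2, 87.6, 90.2 and 86.9 CPM in HT55 DMSO and 92.4, 98.8, 88.8 and 103 CPM with itraconazole. The SW948 libraries gave 109, 96.6, 110.3 and 106 CPM with DMSO and 143, 138, 133 and 132 CPM with itraconazole. Only the SW948 groups were apart. The log2 fold change there was 0.34 ± 0.06 (SE, edgeR adjusted p = 0.000186) with TMM and 0.01, not called, on plain totals. WDR75 (0.37) and BYSL (0.22) also rose in SW948 with TMM only, WDR75 being at 0.03 and BYSL at -0.11 on plain totals. The BYSL call was lost in 5 of 8 fits without 1 library.

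RRP12, an export factor of the small subunit, was at 65.5, 61.9, 64.8 and 65.9 CPM in HT55 DMSO and 86.2, 79.8, 50.5 and 66.7 CPM with itraconazole. In SW948 it was at 51.0, 51.0, 58.2 and 56.6 CPM with DMSO and 52.7, 42.5, 48.8 and 47.9 CPM with itraconazole. Groups overlapped in both lines, and the spread was widest in treated HT55, from replicate 3 at the bottom to replicate 1 at the top. Log2 fold changes were 0.13 ± 0.14 (SE, edgeR adjusted p = 0.455) and -0.21 ± 0.08 (SE, edgeR adjusted p = 0.0288). The SW948 call was lost in 4 of 8 fits without 1 library, and without replicate 3 of treated HT55 RRP12 rose in HT55 (edgeR adjusted p = 0.0096).

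Among the large subunit factors were EBNA1BP2 and MRTO4, the lowest log2 fold changes of the 44 in SW948. Of 12, RRP1, RRS1, PES1, EBNA1BP2 and MRTO4 fell in HT55 and none rose. In SW948 these 5 fell, as did BOP1, PPAN and LAS1L, while GNL3 rose and NOP2, NOP16 and WDR12 were not called. On plain totals 11 of the 12 fell in each line, NOP2, NOP16 and WDR12 among them, and GNL3 was called in neither. By comparison, 26.5% of all genes fell in HT55 and 41.3% in SW948 with TMM, and 38.8% and 54.6% on plain totals. EBNA1BP2 (chr1:43629846-43736607, minus strand, GRCh37, protein coding), a factor of early large subunit particles, was at 82.2, 89.5, 85.6 and 88.9 CPM in HT55 DMSO and 47.3, 45.3, 55.99 and 48.3 CPM with itraconazole. In SW948 it was at 90.7, 90.3, 94.3 and 93.5 CPM with DMSO and 17.2, 12.9, 13.5 and 14.9 CPM with itraconazole. The controls of the lines were not called different with TMM, and the treated mean was 49.2 CPM in HT55 and 14.6 CPM in SW948. By the fit of each line, treated libraries were 1.76-fold (HT55) and 6.41-fold (SW948) lower than the controls. The log2 fold changes were -0.82 ± 0.08 (SE, edgeR adjusted p = 2.49e-05) and -2.68 ± 0.09 (SE, edgeR adjusted p = 2.3e-11).

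MRTO4, which prepares the ribosomal stalk, followed the same order. It was at 43.6, 42.7, 46.4 and 44.8 CPM in HT55 DMSO and 27.1, 25.7, 25.7 and 25.3 CPM with itraconazole. Levels in SW948 were 63.1, 58.0, 59.8 and 60.5 CPM with DMSO and 19.6, 13.7, 10.8 and 12.9 CPM with itraconazole. No treated library reached a control in either line. The log2 fold changes were -0.78 ± 0.07 (SE, edgeR adjusted p = 1.72e-05) and -2.10 ± 0.13 (SE, edgeR adjusted p = 4.22e-09). RRP1 fell by 0.55 and 1.89 on the log2 scale, its HT55 call being lost in 3 of 8 fits without 1 library. PES1 fell by 0.60 and 1.52. It forms a complex with BOP1 and WDR12. BOP1 fell in SW948 by 0.62 from a low level of 6.51 CPM, and WDR12 was at -0.16 in HT55 and -0.07 in SW948. RRS1 fell by 0.71 and 0.94.

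GNL3, nucleostemin, a GTPase abundant in stem and tumor cells, had the highest level per length in this group, at 71.5 RPKM. It was at 107, 112.5, 114 and 111 CPM in HT55 DMSO and 127, 138, 77.9 and 107 CPM with itraconazole. Levels in SW948 were 147, 152, 139 and 149 CPM with DMSO and 202, 179, 157 and 190.2 CPM with itraconazole. Treated HT55 libraries lay on both sides of the controls, and all treated SW948 libraries lay above theirs. The log2 fold change was 0.01 ± 0.14 in HT55 (SE, edgeR adjusted p = 0.958) and 0.28 ± 0.08 in SW948 (SE, edgeR adjusted p = 0.00355), and on plain totals the SW948 value was -0.04 and not called. LAS1L, an endonuclease, fell in SW948 by 1.004. NOP2, an rRNA methyltransferase, was at -0.09 in HT55 and 0.14 in SW948.

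Some of these genes share exonic bases with others in the count files, and reads in such stretches may be split or left uncounted. The shared part of the exons was 49.2% for PPAN, 29.96% for TBL3, 28.1% for NHP2, 23.1% for HEATR1, 20.7% for NOP14, 18.6% for NOP16, 13.7% for EBNA1BP2 and 11.2% for POLR1C. Reads that align in more than 1 place were left out, so genes with near copies, such as NPM1 and RRN3, are uncertain in level.

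The responses of the lines were compared directly as the SW948 minus the HT55 log2 fold change. The difference was called for 26 of the 44 genes, 19 lower and 7 higher in SW948, where 29.1% and 24.8% of 13249 genes were. On plain totals 22 were lower and 4 higher (37.2% and 17.3%). EBNA1BP2 and POLR1A had the largest differences, at -1.84 ± 0.12 (SE, edgeR adjusted p = 1.26e-09) and -1.86 ± 0.16 (SE, edgeR adjusted p = 2.13e-08), followed by RRP1 at -1.31, MRTO4 at -1.30, POLR1C at -1.13 and HEATR1 at -1.03. The 7 higher ones were NPM1 (0.98), FBL (0.67), DDX21 (0.60), WDR75 (0.50), NOP10 (0.41), IMP4 (0.27) and NOP2 (0.26), of which NOP10, IMP4 and NOP2 were not called on plain totals. For NOLC1 (0.09 ± 0.10), WDR43 (-0.07 ± 0.10) and UTP4 (-0.07 ± 0.11), which fell in both lines, the difference was within 1 SE of 0.

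**Figure D4:**
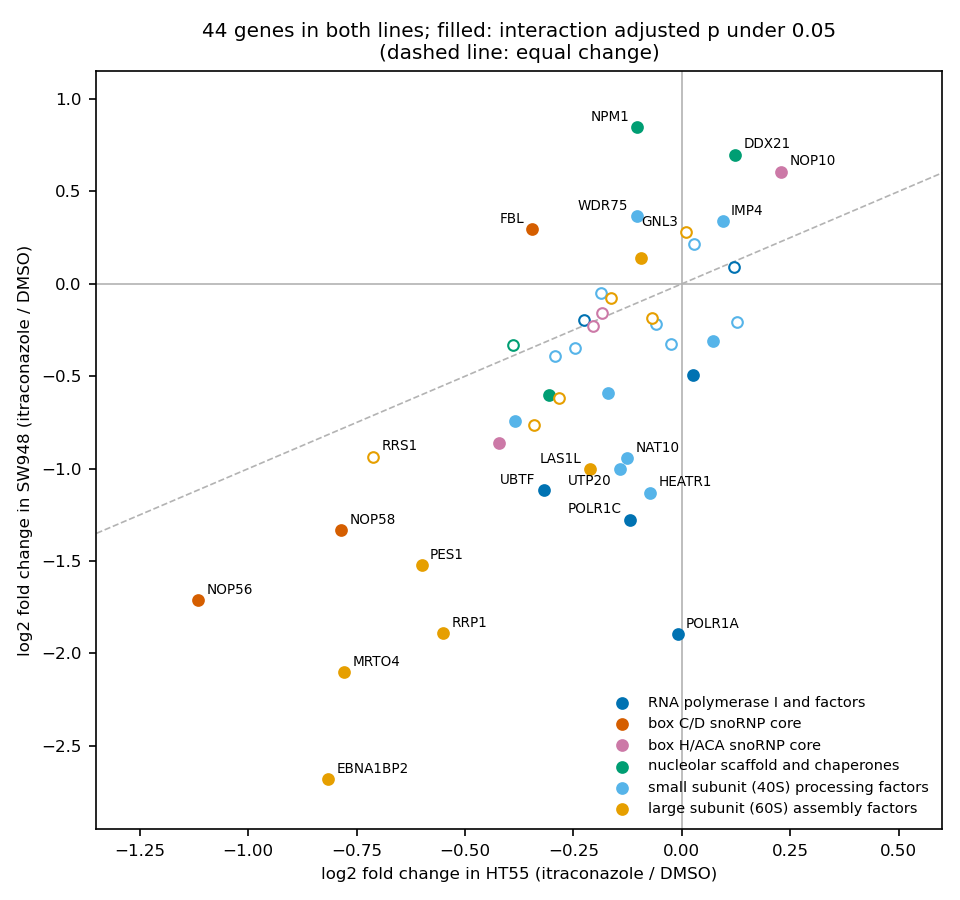
Log2 fold change in SW948 against that in HT55 for the 44 genes (TMM, each from 8 libraries), colored by role and filled where the difference between the lines has an adjusted p under 0.05. Points below the dashed line of equal change, 30 of 44, fell further or rose less in SW948; POLR1A lies at 0 in HT55 and near -1.9 in SW948.

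The treated libraries of a line were not alike. Median log2 ratios of the 44 genes to their DMSO means were -0.03, -0.13, -0.29 and -0.27 in treated HT55 (replicates 1 to 4, TMM). On plain totals they were -0.22, -0.37, -0.37 and -0.45, so replicate 3 was not the lowest there. Over the 15 genes called lower in HT55 the TMM medians were -0.36, -0.53, -0.46 and -0.46, so replicate 3 was not the weakest for these. Replicate 1 was the highest treated library for 8 of the 15 and replicate 3 for 6, among them NOP56, NOP58 and EBNA1BP2. In SW948 the medians over all 44 were -0.25, -0.37, -0.50 and -0.46 with TMM and -0.53, -0.77, -0.94 and -0.81 on plain totals. Replicate 1 was the highest treated SW948 library for 20 of the 28 genes that fell. Without replicate 3 of treated HT55, 4 genes rose in that line in place of 1.

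The DMSO groups of the lines were compared at the same day. With TMM, 22 genes were lower and 18 higher in SW948 DMSO than in HT55 DMSO (41.6% and 42.6% of 12820 genes), and on plain totals 14 and 22 were (33.7% and 51.0%), so that the number called was near the background. The median difference was -0.06 with TMM and 0.13 on plain totals. The box H/ACA proteins bind each other in 1 particle but held both ends of this range. DKC1 was at -1.42 ± 0.04 (SE, edgeR adjusted p = 1.04e-19) and NOP10 at -1.05 ± 0.06 (SE, edgeR adjusted p = 2.36e-14), whereas NHP2 was at 0.97 ± 0.06 (SE, edgeR adjusted p = 8.7e-14). NAT10 was at 0.77, RRP1 at 0.74, NOP16 at 0.68, POLR1C at 0.67 and NOP56 at 0.66. RRN3 was at -0.97, PPAN at -0.89, TBL3 at -0.84, BOP1 at -0.73, BYSL at -0.70, NOLC1 at -0.67 and LAS1L at -0.67. These genes, and DKC1, NOP10 and NHP2, kept their direction and call on plain totals. UBTF (-0.01), PWP2 (0.09), EBNA1BP2 (0.10) and PES1 (0.10) were not called with TMM and were higher in SW948 on plain totals. The line and any difference in culture cannot be told apart here.

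**Figure D5:**
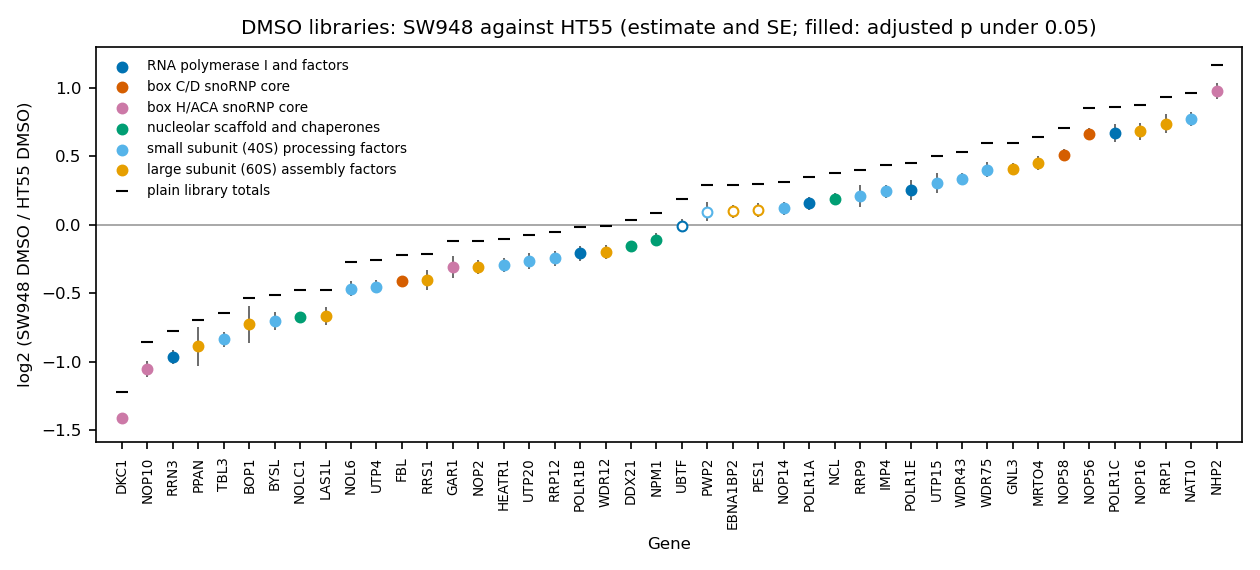
Log2 ratio of SW948 DMSO to HT55 DMSO for the 44 genes in ascending order, with SE (circles, TMM, 4 libraries against 4; filled where the adjusted p is under 0.05) and on plain library totals (dashes). Values run from -1.42 (DKC1) to 0.97 (NHP2), and the plain values lie about 0.19 higher.

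Other genes of the pathway were read from lists of the same roles. Of 89 further ribosome biogenesis genes, 42 of 88 tested fell and 5 rose in HT55, and 47 of 89 fell and 23 rose in SW948, with median log2 fold changes of -0.24 and -0.27. Over all genes tested, 26.5% fell and 27.5% rose in HT55, and 41.3% and 38.9% in SW948. On plain totals 62 fell and 3 rose in HT55 and 63 fell and 9 rose in SW948, where 38.8% and 18.8% of all genes and 54.6% and 25.1% did. Within them, the 9 other RNA polymerase I genes had 3 falls and 2 rises in HT55 and 3 falls and 4 rises in SW948. The 4 that rose in SW948, where POLR1A fell, were POLR1D, TAF1D, POLR1H and TTF1, named here after their values were seen. The 3 that fell there, named in the same way, were TAF1C (-1.04), POLR1G (-0.72) and TAF1A (-0.57). TAF1C and POLR1G also fell in HT55 (-0.35 and -0.32). POLR1D, a subunit shared with RNA polymerase III, was at 0.57 and 1.26, and TAF1D, a promoter factor gene that hosts snoRNAs, at 0.84 and 2.76 (edgeR adjusted p = 0.00997 and 1.5e-10). Both rises were called in each line on plain totals too. POLR1H, a small subunit of the enzyme, was at -0.36 (HT55, edgeR adjusted p = 0.0305) and 0.71 (SW948, edgeR adjusted p = 6.01e-06), and both calls held on plain totals. TTF1, a transcription termination factor, was at -0.05 and 0.51 (edgeR adjusted p = 0.711 and 0.000207), and its rise was not called on plain totals. Of the 11 RNA polymerase III subunit genes, 6 fell and 1 rose in HT55 and 9 fell and 1 rose in SW948. Of 7 RNA polymerase II subunit genes, 3 fell and 2 rose in HT55, and 2 fell and 4 rose in SW948. The 5 subunits shared by the polymerases had 1 fall in HT55, and 2 falls and 2 rises in SW948. On plain totals the falls and rises were 4 and 2 in HT55 and 5 and 3 in SW948 for the other RNA polymerase I genes, 9 and 1, and 10 and 1, for RNA polymerase III, 4 and 1, and 3 and 3, for RNA polymerase II, and 4 and 0, and 3 and 0, for the shared subunits.

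A pair of further genes was read beside these results. MYC, whose product binds the E-box, was at 295 ± 2.36 CPM in HT55 DMSO and 380 ± 92.5 CPM with itraconazole, and at 295 ± 7.01 and 335 ± 36.6 CPM in SW948 (SD, n = 4). Neither difference was called (log2 0.36 and 0.15, edgeR adjusted p = 0.0574 and 0.0768), and on plain totals the SW948 value was -0.18 (edgeR adjusted p = 0.0767). MKI67, a marker of cycling cells added with results known, went from 416 ± 9.85 to 337 ± 44.6 CPM (HT55) and from 66.8 ± 4.68 to 35.98 ± 6.39 CPM (SW948, SD, n = 4 in each). It fell by 0.31 and 0.92 on the log2 scale (edgeR adjusted p = 0.0143 and 2.01e-06). MKI67 thus fell alongside the ribosome biogenesis genes, and its part in their change was not tested.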

How the data were processed

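RNA was sequenced as single-end 50 bp TruSeq libraries. The authors deposited raw, unnormalized read counts per Ensembl gene, 1 file per library. The submitters' processing notes name TopHat, HTSeq, DESeq and hg19, without versions. Multiply aligned reads had been set apart by the counting, and 5 lines of totals outside genes were left out here (no feature, ambiguous and others). Symbols and coordinates came from GENCODE mapped to GRCh37.

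The 44 genes, their role groups and the other lists were chosen with earlier results of these data known. Counts of the whole table were tested with the edgeR 4.0.16 quasi-likelihood test (R 4.3.3, TMM, filterByExpr, Benjamini-Hochberg over all genes, threshold 0.05). Each line was fitted on its 8 libraries, the difference of responses on all 16 and the DMSO groups on 8. Displayed CPM used TMM factors over 16 libraries, and RPKM divided these by the length of the canonical transcript in kilobases. Each SE is the log2 fold change divided by the square root of its F value. All 44 genes may be named. Values in each library are given for the member with the highest RPKM in each role group, the 3 lowest and 3 highest log2 fold changes per line, and members called opposite ways, 13 genes in all. The procedure was tested on simulated data. The alternatives were plain totals, DESeq2 1.42.0 (size factors and Wald test), filters, a minimum absolute log2 fold change of 0.5, a fit on all libraries, a replicate block, leaving out the 20 top genes with the mitochondrial genes, and leaving out each library. The reads carry no molecular identifiers. At 8269406 to 11110814 gene counts per library, the smallest count of a member in any library was 11.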

Additional observations from a re-analysis of the deposited data

Results flagged for a closer look

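A difference between the lines in the response to itraconazole, tested as an interaction of line and treatment in edgeR, was found for 26 of the 44 genes, 19 lower and 7 higher in SW948, where 29.1% and 24.8% of all 13249 genes were. The values that follow are the SW948 minus the HT55 log2 fold change. Genes that fell further, or rose less, in SW948 were POLR1A (-1.86), EBNA1BP2 (-1.84), RRP1 (-1.31), MRTO4 (-1.30), POLR1C (-1.13), HEATR1 (-1.03), PES1 (-0.892), UTP20 (-0.829), NAT10 (-0.786), UBTF (-0.77), LAS1L (-0.764), NOP56 (-0.57), NOP58 (-0.518), POLR1B (-0.489), DKC1 (-0.411), NOL6 (-0.391), TBL3 (-0.352), NOP14 (-0.328) and NCL (-0.267). Genes that rose further, or fell less, in SW948 were NPM1 (0.98), FBL (0.669), DDX21 (0.604), WDR75 (0.499), NOP10 (0.408), IMP4 (0.273) and NOP2 (0.261). On plain totals NOP10, IMP4 and NOP2 were no longer called. The NOP2 difference was lost in 12 of the 16 fits that left out 1 library.

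In 7 of the 176 groups of 4 libraries (44 genes in 4 groups), 1 library lay far from the other 3, against 8.8 groups that chance gives at 1 in 20. The gap to the nearest library as a share of the group's whole range was 0.897 for UTP4, high in replicate 3 of treated HT55, and 0.881 for UTP20, low in replicate 1 of SW948 DMSO. It was 0.879 for TBL3 and 0.833 for UTP15, both low in replicate 4 of treated SW948. It was 0.855 for NPM1, low in replicate 3 of SW948 DMSO, 0.85 for RRS1, low in replicate 4 of HT55 DMSO, and 0.832 for POLR1C, low in replicate 2 of SW948 DMSO. Of these, the UTP15 fall in SW948 was lost without its far library, along with 3 other single libraries.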

How the results depend on the processing

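With the members called counted as lower, higher and in all, plain totals gave 32, 0 and 32 in HT55, 3 higher in SW948, 4 higher for the difference between the lines and 14 lower between the DMSO groups. A minimum absolute log2 fold change of 0.5 gave 7, 0 and 7 in HT55, 3 higher and 23 in all in SW948, 3 higher and 16 in all for the difference between the lines, and 9, 7 and 16 between the DMSO groups. Without the filter on low counts none rose in HT55. Leaving out 1 library at a time gave 13 to 16 lower, 0 to 4 higher and 13 to 20 in all in HT55, 26 to 30, 7 to 9 and 33 to 39 in SW948, 19 to 20, 6 to 8 and 25 to 28 for the difference between the lines, and 21 to 22, 16 to 20 and 37 to 41 between the DMSO groups. The other counts were within 1.5 times those reported. Some directions turned. On plain totals these were, in HT55, POLR1B (-0.1425), RRN3 (-0.0535), DDX21 (-0.0485), TBL3 (-0.0894), IMP4 (-0.0729), RRP12 (-0.0463), BYSL (-0.14) and GNL3 (-0.1656). In SW948 they were RRN3 (-0.237), FBL (-0.0353), BYSL (-0.1145), NOP2 (-0.197) and GNL3 (-0.0449), of which RRN3 and NOP2 passed the threshold. For the difference between the lines they were POLR1E (-0.1224), GAR1 (-0.1918), NHP2 (-0.1387), NOLC1 (-0.0984), RRP9 (-0.0222) and WDR12 (-0.063), and between the DMSO groups UBTF (0.1855, past the threshold), NPM1 (0.083) and DDX21 (0.0334). POLR1A in HT55 turned to 0.0018 with DESeq2 size factors and 0.0012 in the DESeq2 Wald test. GNL3 in HT55 turned to -0.0015 with 10 counts in every library, -0.0017 without the filter and -0.017 with the replicate block. For the difference between the lines RRN3 turned to 0.025 with DESeq2 size factors, 0.024 in the Wald test, 0.0069 with 10 counts in every library and 0.0014 without the 20 top genes and the mitochondrial genes, and GAR1 to -0.0032 without the filter. UBTF between the DMSO groups turned to 0.017 with 10 counts in every library and 0.0013 without the filter. Over the fits without 1 library, values in HT55 spanned 0 for POLR1A (-0.0236 to 0.0133), PWP2 (-0.0659 to 0.0443), POLR1B (-0.0163 to 0.0933), GNL3 (-0.1018 to 0.167), BYSL (-0.0099 to 0.0783), NPM1 (-0.21 to 0.0287), UTP15 (-0.106 to 0.0166) and WDR75 (-0.209 to 0.0155), and in SW948 for WDR12 (-0.148 to 0.0167). They did so for RRN3 (-0.106 to 0.115), GAR1 (-0.064 to 0.0578), POLR1E (-0.0586 to 0.148) and UTP4 (-0.111 to 0.013) in the difference between the lines, and for UBTF (-0.0398 to 0.0274) between the DMSO groups. The cause of these changes was not tested.

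The groups share replicate numbers, but libraries with the same number deviated together only weakly. The correlations were -0.045 to 0.14 in HT55 and 0.0019 to 0.13 in SW948, and no pairing was used. Whether libraries with the same number share a culture or batch is not given in the labels. With the number as a replicate block 15 were lower and 1 higher in HT55 and 29 and 8 in SW948, and the difference between the lines was lower for 19 and higher for 6, RRN3 turning to 0.012 there. The best match was the own number for 1 of 4 numbers in HT55 and 2 of 4 in SW948. Depth limits genes with few counts, PPAN and BOP1, whose SE in SW948 were 0.23 and 0.17.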
